A study of Mus musculus with 2 samples.

Results

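The transcription factor NRF2 (gene Nfe2l2), its inhibitor KEAP1 and 8 antioxidant genes are described here in new and preexisting RNA of mouse embryonic stem cells. The 10 genes were taken by name: Nfe2l2, Keap1, Hmox1, Nqo1, Gclm, Gclc, Txnrd1, Txn1, Srxn1 and Prdx1. Their members in the data are the transcripts that GENCODE M21 calls protein coding, 21 of the 49490 protein-coding transcripts and of the 121429 transcripts in the table. The annotation holds 5 further coding transcripts, 1 of Keap1 and 4 of Txnrd1, which have no row in the table, and 8 noncoding transcripts of these genes have a row and were left out of the sums.

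The cells were wild-type (WT) XY embryonic stem cells, a pluripotent cell type, of the line DTCM23/49. They grew without feeder cells on gelatin, in medium with serum, Leukemia Inhibitory factor and β-mercaptoethanol, a reducing agent. For 10 min they received 200 µM 4-thiouridine (4sU), which is taken up and incorporated in place of uridine into RNA as it is transcribed. RNA with 4sU was biotinylated and bound to streptavidin beads, which gave labeled RNA, and the RNA that did not bind gave unlabeled RNA. Both groups hold 1 library, both of replicate 1, from the same genotype, treatment and time, so that what is compared is 2 RNA pools and not 2 states of the cells. No sample without 4sU and no oxidative or electrophilic stress was part of the comparison. With 1 library per group there was no test, and no p-value or error across replicates can be given for any value below.

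NRF2 is held in the cytoplasm by KEAP1, which hands it to a CUL3 ubiquitin ligase for degradation. Oxidants and electrophiles modify cysteines of KEAP1, NRF2 then escapes, enters the nucleus, pairs with a small MAF protein and binds antioxidant response elements near its target genes. The targets detoxify quinones and heme, make glutathione, and run the thioredoxin and peroxiredoxin systems that reduce oxidized proteins and peroxides. This switch works largely on the NRF2 protein, which RNA values do not measure.

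The element NRF2 binds has the core letters TGACNNNGC. Promoter sequence, from 250 bases before to 50 bases after the transcription start in RefSeq on GRCm38.p6, was available for 8 of the 10 genes, in 10 windows. None was there for Hmox1 and Gclc. The core, on either strand, was in the windows of 5 of these 8 genes, Nfe2l2, Gclm, Txnrd1, Srxn1 and Prdx1, and in 5 of the 10 windows, beside 12.4% of 32851 windows over all genes. The stricter letters TGACTCAGC were found for 1 gene, Prdx1, and in 0.454% of all windows. The letters TGAGTCAGC, which were searched after the first result was seen and do not overlap the core, were found for 1 gene, Srxn1, and in 0.414% of all windows. A match describes letters and not a bound site, and no binding was measured in these data. The stretches around the matches before the start are shown because they hold the letters that were searched. They read 5′ to 3′ on the strand of the gene, with the matched letters in capitals. The core match of Srxn1 lay 29 bases inside the transcript, so its TGAGTCAGC match is shown in its place.
Nfe2l2, chr2:75704870-75704913, minus strand, match 240 bases before the start: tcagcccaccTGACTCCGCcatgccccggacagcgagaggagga
Gclm, chr3:122245398-122245456, plus strand, match 134 bases before the start: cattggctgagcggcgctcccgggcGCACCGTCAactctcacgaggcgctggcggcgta
Txnrd1, chr10:82859089-82859147, plus strand, match 92 bases before the start: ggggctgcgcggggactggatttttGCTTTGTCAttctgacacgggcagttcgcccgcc
Srxn1, chr2:152105454-152105512, plus strand, match 45 bases before the start: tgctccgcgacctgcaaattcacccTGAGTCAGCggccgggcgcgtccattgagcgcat
Prdx1, chr4:116685441-116685499, plus strand, match 133 bases before the start: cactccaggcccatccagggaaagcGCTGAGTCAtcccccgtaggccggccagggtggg
The matches of Gclm, Txnrd1 and Prdx1 lie on the strand opposite to the gene, where they read as the core.

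Each transcript has a relative abundance for its exons and one for its introns in each library, per length, on a scale 10 times that of TPM. Values are given in this deposited unit, and 1 unit is 0.1000 TPM. A gene's value is the sum over its coding transcripts. The table holds no read counts, so that depth and counting error are unknown. The stem cell label was checked first: 9 of 9 pluripotency markers had a mean exon value above 10, and they summed to 10407 in labeled and 12812 in unlabeled RNA. Of 8 markers of fibroblast feeders and 8 of early differentiated cells, 1 each passed 10, Thy1 with 6.03 and 14.4 and Pax6 with 68.7 and 70.5. Both lists summed to at most 78.2 in either library, and Col3a1, Lum, Postn, Sox17, Gata6, Foxa2 and Afp were listed at 0.

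All 10 genes were present in both libraries, and their mean exon values lay between the 27.2 percentile (Srxn1) and the 99.6 percentile (Prdx1) of coding genes. Their median mean exon value was 134, beside 38.1 (quartiles 8.90 and 143) over the 14119 coding genes with a mean exon value above 1. In both libraries Prdx1 was the highest and Srxn1 the lowest. In labeled RNA the order from high to low was Prdx1, Txn1, Gclm, Nfe2l2, Hmox1, Txnrd1, Gclc, Nqo1, Keap1 and Srxn1, and in unlabeled RNA Gclm and Txn1 changed places. Without replicates it cannot be said which neighbours in this order differ. These are bulk samples, in which fewer cells that express a gene and less of its RNA per cell cannot be told apart.

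**Figure D1:**
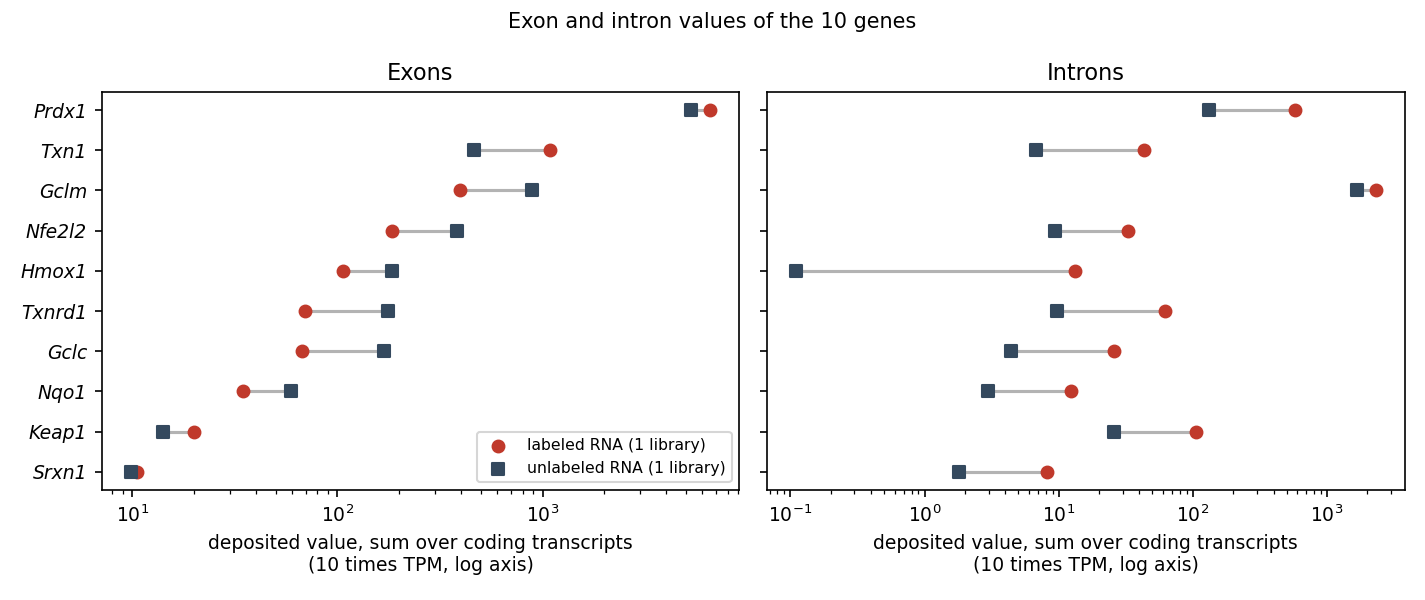
Exon values (left) and intron values (right) of the 10 genes in labeled RNA (red circles) and unlabeled RNA (dark squares), on log axes in the deposited unit of 10 times TPM, 1 library each, genes ordered by mean exon value. Exon values fall on either side, 6 genes lower and 4 higher in labeled RNA, while all 10 intron values are higher in labeled RNA, and the unlabeled intron value of Hmox1 sits alone at 0.110.

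The exon values of the 2 libraries were compared to see which of these RNAs held more of their share in the RNA of the last 10 min. Since each library is scaled to its own total, the ratio of labeled to unlabeled value was set against the median gene, at 0.836, and a log2 value of 0 means the same ratio as that gene. Of the 10 genes 6 lay below and 4 above it. A difference over 2-fold was found in 3 genes: Txn1 was higher, and Gclc and Txnrd1 were lower. Both lower genes were close to the 2-fold line, and with a minimum mean exon value of 10, which moves the median gene, 0 genes were past it. Over all 14119 genes 21.9% were over 2-fold higher and 14.8% over 2-fold lower, so that 1 and 2 of 10 genes are near these shares. The median of the 10 genes was -0.54, and the quartiles of all genes were -0.68 and 0.84.

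Nfe2l2, the regulator itself, had an exon value of 184 in labeled and 383 in unlabeled RNA. The ratio of 0.482 was 1.74-fold under the median gene, a log2 difference of -0.80. The table holds a single coding transcript, ENSMUST00000102672, with 5 exons on the minus strand of chromosome 2 (75675513 to 75704641, GRCm38). Keap1 was expressed at a far lower level, with 20.1 in labeled and 14.2 in unlabeled RNA. The inhibitor thus stood on the other side of the median gene, with a ratio of 1.41 and a log2 difference of 0.76. Of its 4 coding transcripts in the table, ENSMUST00000194542 (chromosome 9, 21229730 to 21239332, minus strand, 6 exons) was the most abundant, and each of the 4 held between 20.6% and 29.0% of the gene's value in either library.

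The detoxifying enzymes had similar exon ratios at different levels. Hmox1, the heme oxygenase that breaks heme down to biliverdin, iron and carbon monoxide, had 106 in labeled and 185 in unlabeled RNA, a log2 difference of -0.55 from the median gene. Nqo1, a quinone reductase and a widely used readout of NRF2 activity, had 34.5 and 59.2, a log2 difference of -0.52. Both are read from 1 coding transcript, ENSMUST00000005548 for Hmox1 (chromosome 8, 75093621 to 75100589, plus strand, 5 exons) and ENSMUST00000003947 for Nqo1 (chromosome 8, 107388225 to 107403206, minus strand, 6 exons).

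Both subunits of glutamate-cysteine ligase, the enzyme of the rate-limiting step of glutathione synthesis, were among the lower genes. The catalytic subunit Gclc had 67.2 in labeled and 168 in unlabeled RNA, a log2 difference of -1.06, read from ENSMUST00000034905 (chromosome 9, 77754535 to 77794485, plus strand, 16 exons). The modifier subunit Gclm had 396 and 887, a log2 difference of -0.90. The RNA of the modifier subunit was thus more abundant than that of the catalytic subunit in both libraries. Gclm has 5 coding transcripts in the table, and ENSMUST00000149983 (chromosome 3, 122255587 to 122266943, plus strand, 5 exons) held 49.8% of the labeled and 47.3% of the unlabeled value. With its 2 noncoding transcripts the gene summed to 2552 and 3395, because the noncoding transcript ENSMUST00000137540 alone had 2091 and 2389.

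The thioredoxin and peroxiredoxin genes were on both sides of the median gene. Txn1, thioredoxin, which reduces disulfides in proteins, had 1082 in labeled and 461 in unlabeled RNA, a log2 difference of 1.49, and 86.1% of genes lay at or below it. Txnrd1, the reductase that returns electrons to thioredoxin, had 69.7 and 176, a log2 difference of -1.08. The enzyme and its substrate thus lay on opposite sides of the median gene. Their coding transcripts are ENSMUST00000030051 for Txn1 (chromosome 4, 57943373 to 57956411, minus strand, 5 exons) and ENSMUST00000020484 for Txnrd1 (chromosome 10, 82859179 to 82897712, plus strand, 14 exons).

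Prdx1, a peroxiredoxin that removes hydrogen peroxide, was among the most abundant RNAs of the cells, with 6581 in labeled and 5283 in unlabeled RNA, and 99.6% of genes had a mean exon value at or below its own. Its log2 difference was 0.57, and over its 5 coding transcripts the ratio of labeled to unlabeled value ran from 1.03 to 1.64. The transcript with the highest mean exon value, ENSMUST00000030454, had 1644 in labeled and 1394 in unlabeled RNA (chromosome 4, 116687312 to 116699186, plus strand, 5 exons). Between 10.9% and 40.0% of the 50-base windows of the Prdx1 transcripts were also in other genes, among them the processed pseudogenes Gm21399 and Gm7204, and how reads were divided among them was not tested. Srxn1, sulfiredoxin, which restores overoxidized peroxiredoxins, was the least abundant, with 10.6 and 9.82 and a log2 difference of 0.37. Its coding transcript ENSMUST00000041500 has 2 exons (chromosome 2, 152105524 to 152111376, plus strand).

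Transcript length moved with these ratios. When the 14119 genes were divided into 10 deciles by the length of their most abundant coding transcript, the median log2 difference was 0.60 in the second shortest decile and -0.48 in the longest. Txn1 has a transcript of 1051 bases, and its decile had a median of 0.60, so that 0.89 remained above it. For Prdx1, with 636 bases, 0.15 remained above a median of 0.43. The difference of Gclm was larger on this scale, at -1.42 from the decile of its 1088-base transcript. The 3 genes whose most abundant transcripts were longest were split, with -0.72 for Gclc, -0.86 for Txnrd1 and 0.98 for Keap1. Against its own decile, 1 gene was over 2-fold lower, Gclm, and no gene was over 2-fold higher. The share of all genes past 2-fold on this scale is not given here, so these counts cannot be set against other genes. The call for Gclm depends on the transcript taken, as its 1088-base transcript held 49.8% of the labeled and 47.3% of the unlabeled value. Gclm also has a coding transcript of 5589 bases, a length in the longest decile, where the median was -0.48. The part of length in each ratio was not tested.

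**Figure D2:**
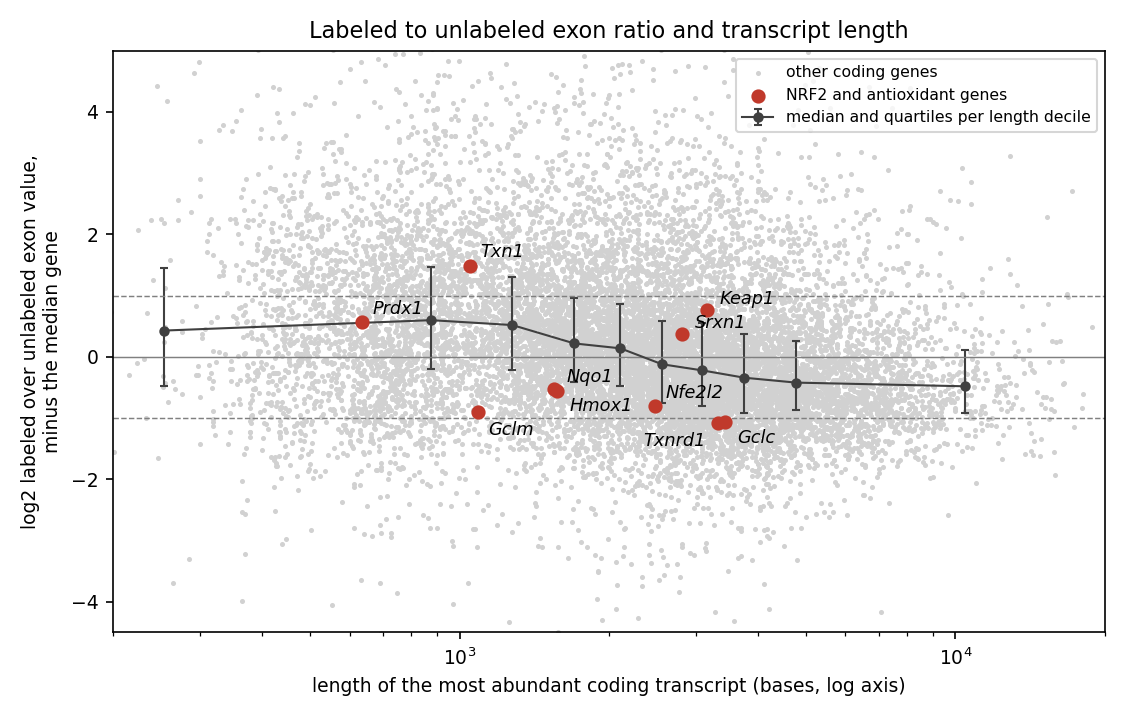
Log2 ratio of labeled to unlabeled exon value minus the median gene (vertical axis) against the length of the most abundant coding transcript in bases (log axis), for the 10 genes (red, named) and the other coding genes (grey, genes beyond the axes not drawn). Dark points with bars give the median and quartiles of each length decile, and dashed lines mark 2-fold. Prdx1 and Srxn1 lie within the quartiles of their deciles, Keap1 and, barely, Txn1 (1.49 against 1.47) lie above them, and the other 6 lie below.

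Introns mark RNA that is not yet spliced, and the intron to exon ratio within a library needs no scaling between libraries. Over the 13025 coding genes with all values above 0 its median was 0.577 in labeled and 0.122 in unlabeled RNA. The medians of the 10 genes were 0.370 and 0.0384. All 10 had a higher ratio in labeled RNA, as did 90.9% of genes. A ratio of 1 or more, at which introns are as abundant as exons per length, was found for Keap1 and Gclm in labeled RNA, beside 28.9% of genes, and for the same 2 genes in unlabeled RNA, beside 10.8% of genes. In labeled RNA Txnrd1 joined them, at 1.33, after subtraction of an assumed leakage of unlabeled RNA. With noncoding transcripts included Srxn1 rose to 1.10 while Gclm fell to 0.941.

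**Figure D3:**
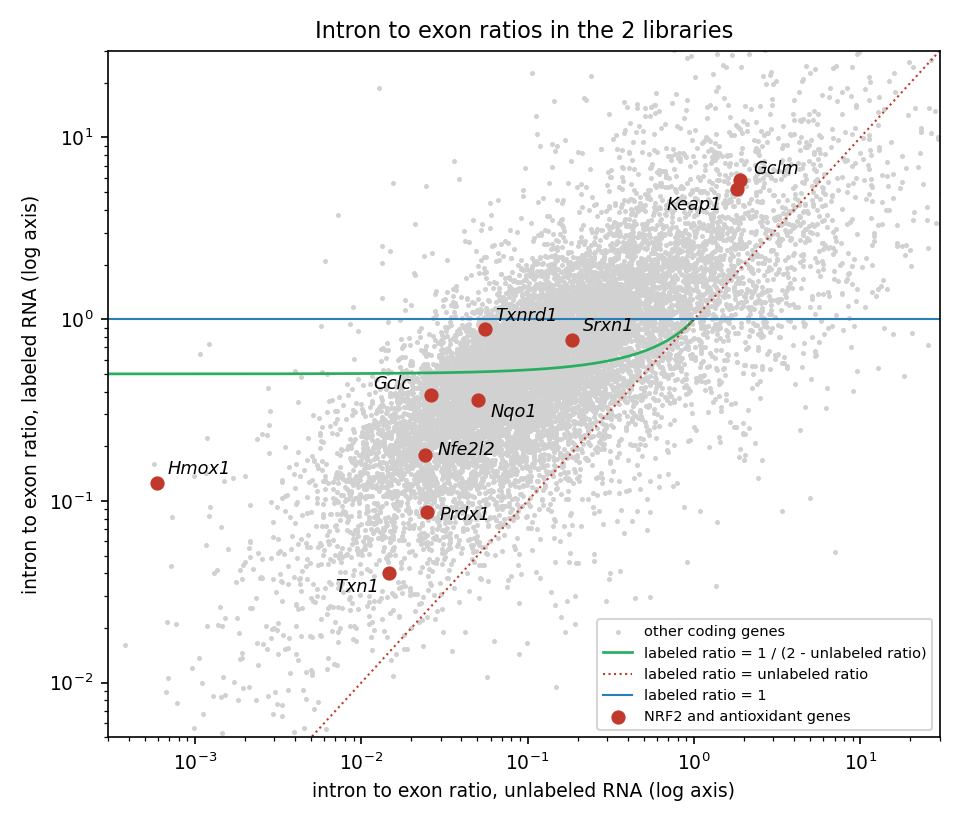
Intron to exon ratio in labeled RNA (vertical) against unlabeled RNA (horizontal), both on log axes, for the 10 genes (red, named) and the other coding genes (grey, genes beyond the axes not drawn). Keap1 and Gclm lie above the blue line of a labeled ratio of 1, Txnrd1 and Srxn1 lie between it and the green curve, the other 6 lie below the curve, and all 10 lie above the dotted diagonal of equal ratios.

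For Nfe2l2 the intron value was 33.1 in labeled and 9.31 in unlabeled RNA, and the ratios to its exons were 0.179 and 0.0243, or 0.407 and 0.0449 with its noncoding transcript included. Hmox1 had introns at 13.3 in labeled and 0.110 in unlabeled RNA, 121-fold apart, where the median gene had 3.90-fold. Its ratios were 0.126 and 0.000593. In unlabeled RNA 0.0461% of the 13025 genes with intron values above 0 lay at or below it. Genes with an unlabeled intron value of 0, such as Gstp1 and Gstm5, were not ranked. The unlabeled intron value of Hmox1 is 11 steps of 0.01, the smallest step of the table, and its unlabeled ratio was 0.00113 with a pseudocount of 0.1 on the values. The table also holds a retained-intron transcript of Hmox1, ENSMUST00000159631, whose exon value was 12.6 in labeled and 49.5 in unlabeled RNA, and one of its exons runs on into an intron of the coding transcript. With this transcript included the ratios of Hmox1 were 0.262 and 0.00136. How reads were divided between these entries was not tested.

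Nqo1 and Gclc had labeled ratios of 0.358 and 0.383 and unlabeled ratios of 0.0505 and 0.0264, the middle values of the 10 genes in each library. Txnrd1 and Srxn1 stood higher in labeled RNA, at 0.884 and 0.771. Txn1 and Prdx1, both abundant and short, had the lowest labeled ratios of the 10 genes, 0.0399 and 0.0875. Gclm, also abundant and with a top transcript of 1088 bases, had the highest, 5.82. Of the 13025 genes with intron values above 0, 1.95% lay at or below Txn1. In introns alone Txn1 had 43.2 in labeled and 6.77 in unlabeled RNA, Prdx1 576 and 132, Txnrd1 61.6 and 9.74. Labeled introns of these 3 genes were thus between 4.36-fold and 6.38-fold above the unlabeled ones, while the exon ratios of Txn1 and Txnrd1 lay on opposite sides of the median gene.

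Keap1 had more intron than exon signal in both libraries, with introns at 105 and 25.9 and ratios of 5.19 and 1.82. The pattern was shared by its 4 coding transcripts, whose labeled ratios ran from 4.06 to 5.86 and whose unlabeled ratios ran from 1.31 to 2.31. An antisense gene, Gm16754, overlaps exons and introns of all 4 transcripts, and its transcripts had exon values of 18.2 and 5.66 and of 3.53 and 2.80 in labeled and unlabeled RNA. Of the 50-base windows of the Keap1 transcripts, between 10.4% and 17.5% were also in Gm16754 on one strand or the other. Whether strand was used in the counting is not given in the sources used here, and the part of Gm16754 in the value of Keap1 was not tested.

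Gclm showed the highest intron values of the 10 genes, 2309 in labeled and 1682 in unlabeled RNA, and ratios of 5.82 and 1.90. Labeled introns were only 1.37-fold above unlabeled ones. The next lowest such fold was 3.55, for Nfe2l2. An intron of each of the 5 coding transcripts holds a processed pseudogene, Gm6061 (ENSMUST00000175860, chromosome 3, 122256728 to 122257219, plus strand, 492 bases), which lies 11171 bases from the start of Gclm. Its own row had 8917 in labeled and 6778 in unlabeled RNA. Its parent Ppia, which codes for cyclophilin A and is used as a reference gene, had 7863 and 6569.7. Of the 443 50-base windows of Gm6061, 88.7% were also in Ppia, and 100.0% were in Gm17494, an antisense transcript over the same bases with 3871 and 2756. The longest run that Gm6061 shares with the coding sequence of Ppia has 323 bases. A stretch of 60 bases from it, the same in the intron of Gclm and in Ppia, is shown because reads from it could be placed at either gene.
Gm6061 in Gclm, chr3:122256859-122256918, plus strand, GRCm38: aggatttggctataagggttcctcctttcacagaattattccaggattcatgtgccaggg

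The noncoding Gclm transcript ENSMUST00000137540 ends within the pseudogene, and 34.8% of its windows were in Gm17494 and 28.9% in Ppia. The coding exons of Gclm do not share this stretch. No window of 4 of its coding transcripts was found in another gene, and 0.776% of those of ENSMUST00000029769 were. The labeled ratios of the 5 coding transcripts ran from 2.66 to 39.1, highest for the shortest transcript of 292 bases, and the unlabeled ratios from 1.03 to 7.61. With all biotypes summed, the ratios of Gclm were 0.941 and 0.502 in labeled and unlabeled RNA. How many of the intron reads came from Ppia was not tested, since the reads were not used here.

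**Figure D4:**
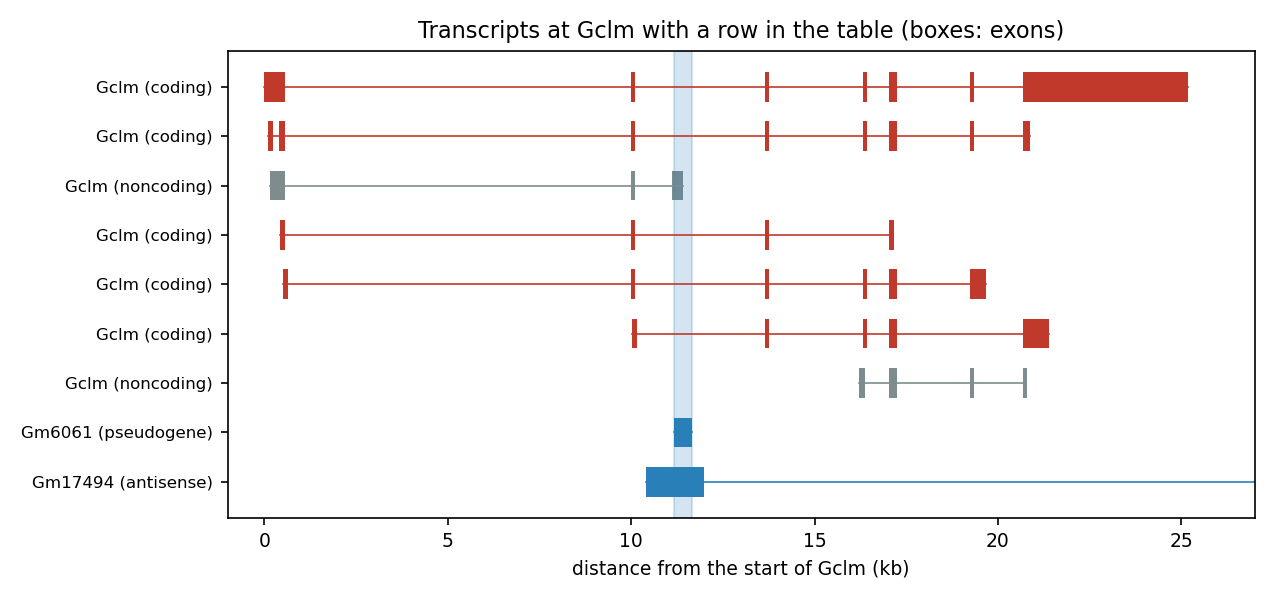
Transcripts at Gclm with a row in the table, by distance from the start of Gclm in kb, with exons as boxes (the shortest widened to be visible) and introns as lines: coding Gclm transcripts in red, noncoding ones in grey, the pseudogene Gm6061 and the antisense Gm17494 in blue (its line runs past the right edge). The shaded span of Gm6061 lies in an intron of every coding Gclm transcript, and the last exon of a noncoding one ends within it.

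Rates were computed as in the study, from a model in which unspliced RNA is made at a constant rate, spliced at one rate and degraded at another. The model allows only labeled ratios under 1 that exceed the unlabeled ratio. Of the 21 coding transcripts 9 lay outside this range, the 4 of Keap1 and the 5 of Gclm, all with a labeled ratio of 1 or more, beside 33.3% of the 31377 coding transcripts with values. The other 12 were compatible. An exact solution was found for 3 of them: Txnrd1 and Srxn1 had 1 and Gclc had 2. The remaining 9, those of Nfe2l2, Hmox1, Nqo1, Txn1 and Prdx1, had none, as did 57.2% of 20916 compatible transcripts, and for these the study's misfit was minimized along its single free variable, the ratio of processing to degradation rate. The misfit at that minimum is given as the square root of the study's measure, which is a squared distance between log ratios. It was lowest for Nqo1 at 0.318 and highest for Txn1 at 2.65. Over all such transcripts its median was 0.744 (quartiles 0.413 and 1.26).

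The median half-life of the 8 genes with rates was 27.1 min, beside 17.7 min (quartiles 9.85 and 36.0) over 9341 genes. Gclc was at 5.65 min, with 2.75 min as the other solution, and Nqo1 at 8.38 min. Hmox1 and Nfe2l2 were nearly the same, at 23.3 and 23.7 min, followed by Srxn1 at 30.4 min and Prdx1 at 52.4 min. The longest were Txn1 at 109.9 min and Txnrd1 at 362 min, where 92.0% and 97.9% of genes lay at or below. Each transcript's half-life rests on 4 values and carries no error, and that of Prdx1 is an average over 5 transcripts, from 23.2 to 84.8 min. Those of Nfe2l2, Hmox1, Nqo1, Txn1 and Prdx1 moved to between 3.16 and 10.2 min when both variables of the misfit were optimized. Those with an exact solution moved too. After subtraction of leakage, unlabeled RNA carried over into the labeled library, Gclc was at 57.1 min and Srxn1 at 67.8 min, and Txnrd1, with a labeled ratio of 1.33, had no half-life. Neither the sizes nor the order of the 8 half-lives is thus a measurement of stability.

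Genes with like exon ratios could have unlike half-lives. Txnrd1 and Gclc, with exon ratios of 0.396 and 0.400, were at 362 and 5.65 min as computed, and at 467 and 106 min with the second library read as total RNA. The half-life uses the intron to exon ratios alone, and there the genes differed, with 0.884 for Txnrd1 and 0.383 for Gclc in labeled RNA. With 1 library per pool this difference has no replicate check.

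Likeness was measured among 9819 coding genes with a mean exon value of at least 10 and introns in both libraries. It was the distance in the log2 of mean exon value, labeled to unlabeled exon ratio and both intron to exon ratios. The genes most like Nfe2l2 were Ulk1, Shc1 and Mettl4, at distances of 0.18, 0.23 and 0.27. Ulk1 had exon values of 191 and 408 and ratios of 0.199 and 0.0240. Those most like Keap1 were Mul1, H13 and Phkg1, at distances of 0.59, 0.80 and 0.80, so that Keap1 had no neighbour as close as those of Nfe2l2. The likeness is over 4 values from 2 libraries.

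A wider list of 79 genes of the NRF2 and antioxidant systems, without the 10, was read in the same way, and 78 passed the minimum. Sod3 did not, with 0.110 in labeled RNA and a listed 0 in unlabeled RNA. Of the 78 genes 17 were over 2-fold higher and 10 over 2-fold lower than the median gene, with a median of 0.42, beside the 21.9% and 14.8% of all genes. The median of the 10 genes, at -0.54, was thus on the other side of the median gene from that of the wider list. Unlike the 10 genes, the wider list was not set against the length deciles, whose medians ran from -0.48 to 0.60. The part of length in the medians of the list and its groups was not tested.

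The partners and control genes of NRF2 ran from -1.94 to 3.14. Cul3, the scaffold of the ligase that KEAP1 recruits, had 522 in labeled and 2390.1 in unlabeled RNA, a log2 difference of -1.94, the lowest of the list. Nfe2l1, a relative of NRF2, had 1325 and 3216 (-1.02), and Bach1, a repressor that competes for the same elements, had 15.9 and 23.9 (-0.33). The small MAF genes differed, with 68.9 and 72.7 for Mafg (0.18) and 22.0 and 2.98 for Maff (3.14). Sqstm1, an autophagy receptor that binds KEAP1, had 235 and 163 (0.79). Of these 13 genes 2 were over 2-fold higher and 3 lower, with a median of 0.18, beside 21.9% higher and 14.8% lower of all genes.

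Among the 15 glutathione genes 3 were over 2-fold higher and 1 lower, with a median of 0.40, beside 21.9% and 14.8% of all genes. Gpx4, which reduces lipid peroxides, had 445 in labeled and 175 in unlabeled RNA (1.60), while Gsr, which regenerates glutathione, had 79.0 and 279.6 (-1.57). Slc7a11, the cystine transporter that supplies the synthesis, had 154 and 314 (-0.77), on the same side as Gclc and Gclm. Of the 15 thioredoxin and peroxiredoxin genes 3 were higher and 2 lower, with a median of 0.48. Txnip, which binds and inhibits thioredoxin, had 551 and 505 (0.38), and Sesn3, a sestrin, had 19.9 and 77.7 (-1.71).

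Of the 5 superoxide and peroxide genes above the minimum 3 were higher and 1 lower, with a median of 1.00. Sod1, the cytosolic superoxide dismutase, had 3346 in labeled and 1993 in unlabeled RNA (1.00), and Ccs, the chaperone that gives it copper, had 27.7 and 7.32 (2.18). The 16 detoxification enzymes had 5 higher and 1 lower and a median of 0.62. The highest of the whole list was there: Mgst1, a microsomal glutathione transferase, with 53.9 and 6.94 (3.21). The 9 genes of NADPH supply had 1 higher and 2 lower and a median of 0.11, and none of 5 genes of iron storage and heme passed 2-fold, with a median of 0.55. Over all genes 21.9% were over 2-fold higher and 14.8% lower, and these groups hold only 5 to 16 genes. Sod1, at 2.01-fold, was barely past the line. No list was tested.

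**Figure D5:**
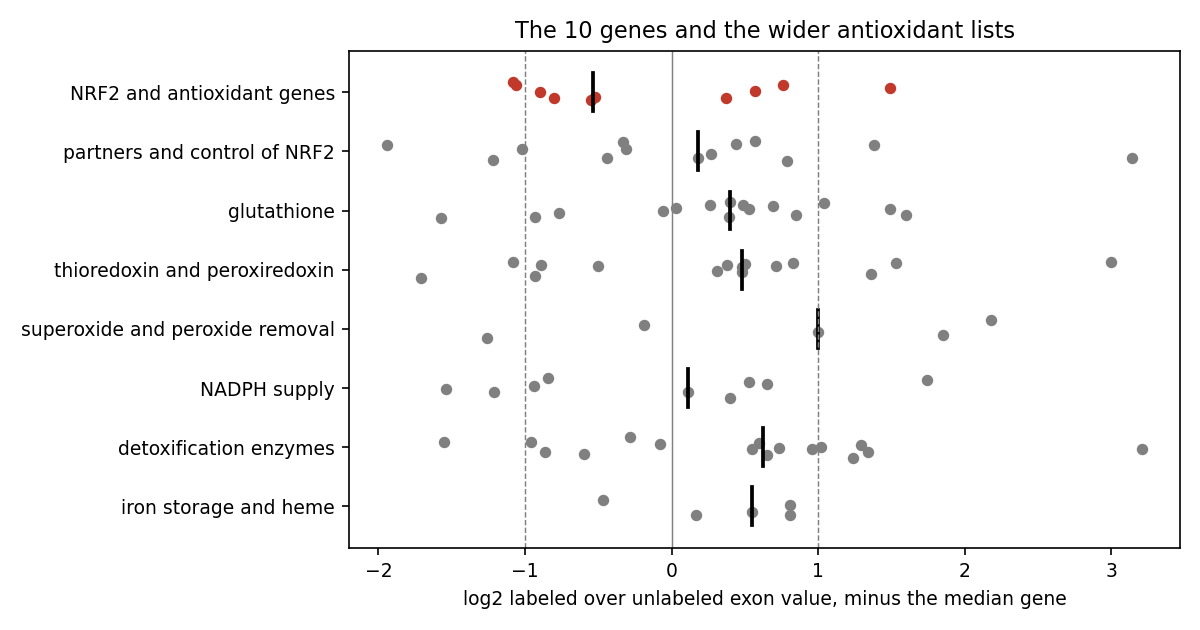
Log2 ratio of labeled to unlabeled exon value minus the median gene for the 10 genes (red) and for the 7 groups of the wider list (grey), 1 point per gene with vertical scatter for sight only, black bars at the group medians and dashed lines at 2-fold. The red median is at -0.54 and the 7 grey medians lie between 0.11 and 1.00, with genes of each group except iron storage and heme past 2-fold.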

How the data were processed

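Labeled and unlabeled RNA of replicate 1, 1 library each, were used. The authors removed ribosomal reads, aligned the rest to exonic and intronic sequences of Ensembl 91 (GRCm38) with STAR (2.5.0 in the submitters' processing notes) and quantified them with RSEM. The deposited values are a normalized signal per transcript, called TPM, whose columns sum to 10 times the TPM total. Depth and counting error are unknown.

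Rows were matched to GENCODE M21 (90.9% of exon rows). Coding transcripts were summed per gene, with a mean exon value above 1 as the minimum and no pseudocount. Ratios were centred on the median coding gene, and over 2-fold counted as a difference. Rates followed the study's equations on 4000 grid points, and the solver was tested on simulated data. Shared sequence was searched in windows of 50 bases, on either strand, in GENCODE M21 transcripts. The second library is called preexisting in one label and total in another. It was used as unlabeled RNA. The 10 genes and all lists were chosen with earlier results of these data known. Named by rule were the 10 genes, 9 genes chosen by name, the 3 highest and 3 lowest of the wider list with a mean exon value of at least 10, and the 3 nearest genes. Sod3, the genes at overlapping loci and the markers were named after their values were seen. Alternatives were other minimums, all biotypes, the top transcript, leakage, a pseudocount, no centring, the other solution, Eq. 15 over both variables, the second library as total RNA and other motif letters. The computations were made in Python 3.11.15 with scipy 1.17.1, numpy 2.4.6 and pandas 2.3.3, and the plots with matplotlib 3.10.9.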

Additional observations from a re-analysis of the deposited data

How the results depend on the processing

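No paired analysis was possible because each RNA pool has 1 library and no test was made. For the same reason no replicate could be left out. Of 411 alternative values 369 lay within 1.5-fold of the reported ones (counts likewise), 42 moved further and 0 were called reversed in sign. Only log2 values can change sign, and only those over 2-fold as reported were checked for it. Some values could not move, since a change of the minimum leaves a gene's intron to exon ratio as it was. These totals are thus no measure of robustness. The count of genes over 2-fold below the median gene, 2 as reported, was 0 with a minimum of 10 and 4 without centring. It was also 4 after subtraction of leakage (assumed, not measured, at 0.139 times the unlabeled value). It was 1 against the length deciles, a setting added once the data had been seen, and the count of higher genes was 0. Incompatible transcripts of the 10 genes were 5 with a minimum of 10 and 15 with all biotypes. The shares over all genes and transcripts are given only for the main setting, 14.8% lower, 21.9% higher and 33.3% incompatible. The counts under other settings thus cannot be set against other genes. Once leakage was subtracted, the median half-life was 47.2 min. It was 50.9 min with the second library as total RNA and 5.40 min with Eq. 15 over both variables. With the second library as total RNA, 7 of 8 half-lives moved, that of Hmox1 to 1464 min and that of Txn1 to 15.1 min. Prdx1 was at 84.8 min with its top transcript alone. The motif was found for 1 gene with TGACTCAGC and for 1 with TGAGTCAGC (chosen after seeing the data). With all biotypes Gclm lay at -0.25. What moved the values was not tested.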
